A study of Mus musculus with 6 samples.

Results

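The constitutive subunits of the proteasome were read in mouse dendritic cells (DC), which break down proteins and present the peptides to T cells. Members were all probe sets of the MOE430A array with a single gene symbol beginning Psma, Psmb, Psmc or Psmd followed by a digit, leaving out Psmb8, Psmb9 and Psmb10, the subunits of the immunoproteasome. The rule matched 65 of 22690 probe sets, which name 36 genes. A member counted as measured when its signal was above 53.5 (the floor, the 40th percentile over the non-control probe sets) on at least 2 arrays. This held for 54 probe sets of 35 genes, beside 14906 measured probe sets and 8934 measured genes in all. Of the 54, 51 were above the floor on all 6 arrays, and the 11 member probe sets that were not measured reached at most 91.9 on any array. Psma8, the testis-type alpha subunit, was not measured, and Psmc3ip matched the symbol rule although its product is a recombination factor and no proteasome subunit. The other 34 measured genes encode subunits or assembly chaperones of the proteasome.

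The cells were DC grown from 13-week-old female CAR-transgenic mouse bone marrow. They had 7 days of expansion and 7 days of differentiation with 250 U/ml GM-CSF, the cytokine that drives DC development here. All groups carry the CAR transgene, whose promoter the labels do not name. The 6 groups, with 1 array each, were cells without virus (untreated or TNFa), cells transduced with AdOVA (alone or AdOVA+TNFa) and cells transduced with AdIkBa-SR (alone or AdIkBa-SR+TNFa). AdOVA is the control adenovirus and AdIkBa-SR an adenovirus for a super-repressor form of IkBa, the inhibitor that retains NF-kB in the cytoplasm. Either virus was given at 1500 particles per cell for 2 h, followed by 18 h of culture, and TNFa, an inflammatory cytokine that activates NF-kB, at 50 ng/ml for the last 4 h. The groups without virus were left untreated, and no group with an empty virus or with mock transduction was analysed here. The labels do not say whether the groups came from separate cultures or from pooled mice, so nothing here measures variation between cultures or mice. Signals below are listed for no virus, then AdOVA, then AdIkBa-SR, each as the array without TNFa followed by the array with it.

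The proteasome degrades proteins tagged with ubiquitin. Its barrel-shaped core particle is a stack of alpha rings (Psma genes) and beta rings (Psmb genes), and the proteolytic sites are in Psmb5 (chymotrypsin-like), Psmb6 (caspase-like) and Psmb7 (trypsin-like). The cap, or regulatory particle, has a base of ATPases (Psmc genes) that unfold the substrate, scaffold and ubiquitin receptor subunits (Psmd1, Psmd2, Psmd4), and a lid (other Psmd genes) with the deubiquitinase Psmd14. Psmd5, Psmd9 and Psmd10 are chaperones that help to assemble the base. In DC the proteasome makes the peptides presented on MHC class I, and it also degrades IkBa, which frees NF-kB. Transcription of the constitutive genes is known to be raised together by Nfe2l1, which binds antioxidant response elements, when proteasome activity is short.

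Because the members are known for shared promoter control, their promoters were searched for motifs. RefSeq promoter windows on GRCm38.p6 were found for 28 of the 34 genes (30 windows, each cut to the 250 bases before the start site), and none for Psmb1, Psmb2, Psmb7, Psmc3, Psmd3 and Psmd7. Both strands were searched. The core of the antioxidant response element (TGACNNNGC) was in 5 of 30 windows (16.7%), those of Psmb5, Psmb6, Psmc6, Psmd9 and Psmd12, beside 10.2% of 32851 windows of the same length. CCAAT was in 11 (36.7%), beside 33.8% of all windows, and the GC box (GGGCGG) in 17 (56.7%), beside 32.7%. An NF-kB motif (3 G, any 2 bases, 3 T, 2 C) was in 0 of the 30 windows, beside 1.41% of all. With so low a share, and only this pattern searched, the 0 does not show that the members lack NF-kB motifs. Shown are the windows of 2 catalytic subunits, Psmb5 and Psmb6, and of Psmc4 and Psmd6, which had probe sets called between the viruses, with the motif matches in capitals and written toward the start site.
Psmb5 (chr14:54617996-54618245, - strand): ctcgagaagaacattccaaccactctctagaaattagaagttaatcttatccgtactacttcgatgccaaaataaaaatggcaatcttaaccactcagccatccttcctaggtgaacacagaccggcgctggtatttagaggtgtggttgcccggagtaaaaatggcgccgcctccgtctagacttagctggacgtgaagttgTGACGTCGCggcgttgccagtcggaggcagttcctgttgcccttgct
Psmb6 (chr11:70525107-70525356, + strand): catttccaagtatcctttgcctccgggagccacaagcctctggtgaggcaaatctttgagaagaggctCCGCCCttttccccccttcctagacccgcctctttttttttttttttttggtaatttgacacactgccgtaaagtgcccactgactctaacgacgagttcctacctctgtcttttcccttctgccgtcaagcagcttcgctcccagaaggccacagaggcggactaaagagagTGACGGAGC
Psmc4 (chr7:28050093-28050342, - strand): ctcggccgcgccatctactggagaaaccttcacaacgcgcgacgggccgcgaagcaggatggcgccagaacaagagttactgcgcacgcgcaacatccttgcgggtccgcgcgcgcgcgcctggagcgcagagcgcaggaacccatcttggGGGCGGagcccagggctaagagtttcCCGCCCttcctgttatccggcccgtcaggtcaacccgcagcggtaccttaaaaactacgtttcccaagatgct
Psmd6 (chr14:14120946-14121195, - strand): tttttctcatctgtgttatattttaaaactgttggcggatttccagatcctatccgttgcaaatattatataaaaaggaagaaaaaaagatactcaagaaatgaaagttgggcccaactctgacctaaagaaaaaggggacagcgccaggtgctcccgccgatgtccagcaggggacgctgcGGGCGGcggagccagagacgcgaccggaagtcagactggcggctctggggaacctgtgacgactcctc

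The capitals in Psmb5 and Psmb6 mark the antioxidant response element core, with in Psmb6 also a GC box on the opposite strand. In Psmc4 they mark 2 GC boxes, 1 on each strand, and in Psmd6 a single GC box. A match describes these letters and not a bound site.

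Median signals of the arrays ran from 74.4 to 88.5 (the highest on AdOVA+TNFa), and 57.9% to 63.4% of probe sets were above the floor. By their recorded hybridization time the untreated, TNFa and AdOVA arrays form round 1 and the others round 2, and the AdIkBa-SR array had a wash with 0 cycles recorded in each step and a first stain of 420 s against 600 s. The 5' control probe set for 18S ribosomal RNA read 2601 on the AdOVA+TNFa array and 120 to 537 on the others. Of 11 DC markers, 10 were measured and 8 were above the floor on all arrays (Flt3 was not measured), with a summed signal of 5769 to 8556. All 6 macrophage markers were above the floor on every array (summed 25056 to 31987), as were 5 of 7 granulocyte markers and 3 of 5 markers of mast cells and basophils (summed 820 to 1581). The T cell markers Cd3e, Cd3d, Cd3g and Cd4 were not measured.

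The members were not lowered or raised as one block. The clearest common feature was a low reading on the AdOVA+TNFa array. There 22 of 35 genes had their lowest signal of the 6 arrays, beside 18.5% of all measured genes. That background takes in dim genes as well as bright ones, and a background of like signal was not taken. The 22 included 12 of 14 core particle genes and 6 of 6 ATPases. They also included 4 of 8 lid genes but 0 of the 3 scaffold and receptor genes. The median level of the core genes on that array was 0.53 below their own mean over the arrays (log2), and on the other arrays it lay between -0.07 and 0.30. Cap genes were 0.26 below. Housekeeping lists of other function did the same to a greater degree, with medians 0.86 below for 43 cytosolic ribosomal protein genes (38 at their lowest) and 0.82 below for 75 respiratory chain genes (59 at their lowest). The array with these low levels is also the one with the high 18S signal, and the part of that in the result was not tested.

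**Figure D1:**
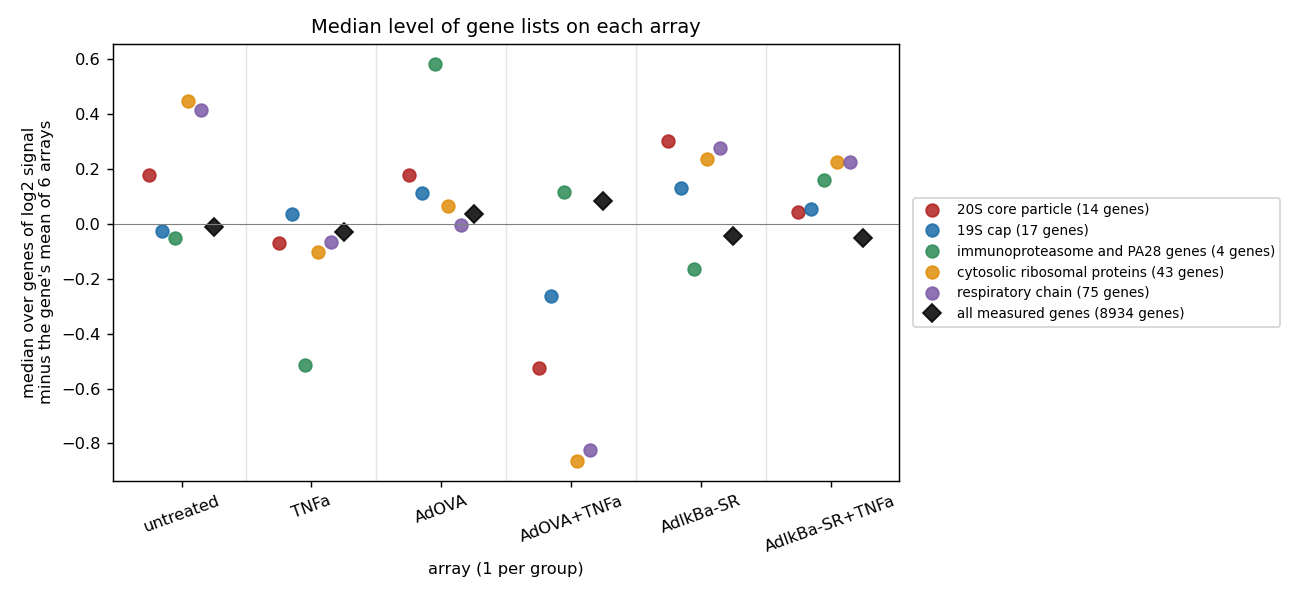
Median over genes of the log2 signal minus the gene's own mean over the 6 arrays (vertical axis), for each array (horizontal axis, 1 per group), for the core particle, the cap and comparison lists. On AdOVA+TNFa the core (-0.53), cap (-0.26), ribosomal protein (-0.86) and respiratory chain (-0.82) points lie below 0, while the immunoproteasome and PA28 genes lie at 0.12.

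**Figure D2:**
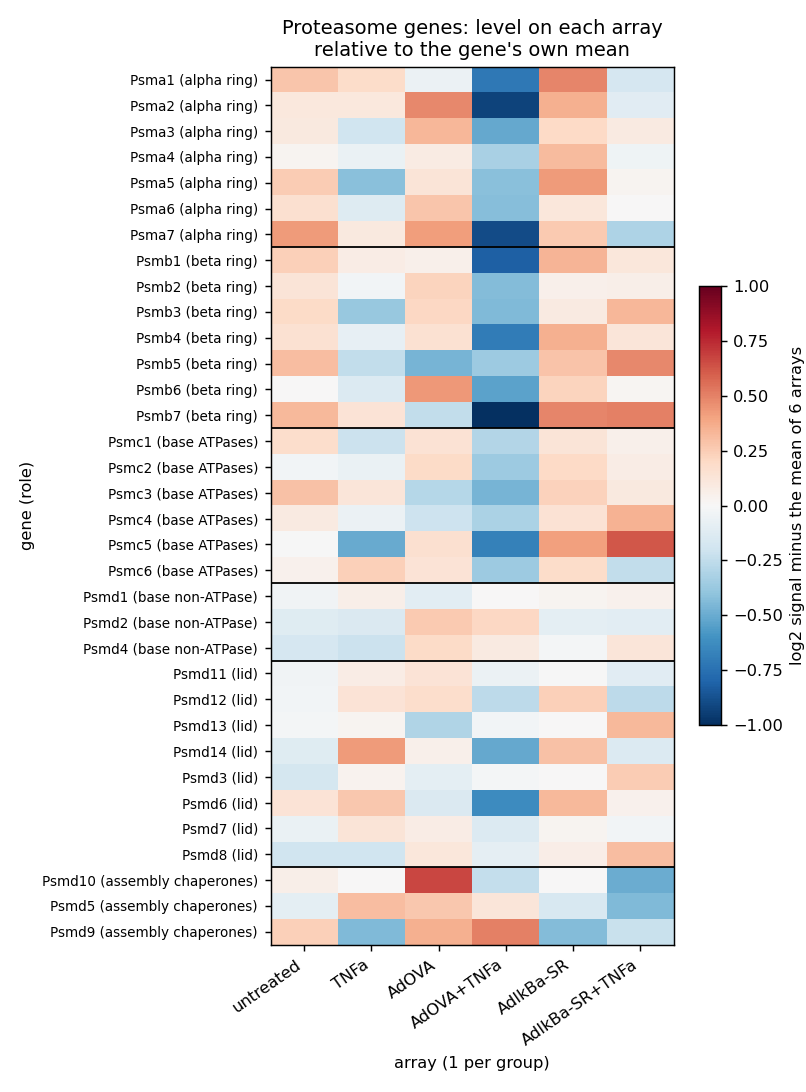
Log2 signal of each of the 34 subunit and chaperone genes minus its own mean over the 6 arrays (colour, full at 1 and -1), ordered by role, with 1 column per array. The AdOVA+TNFa column is low through the core particle and the ATPases and near the mean in Psmd1, Psmd2 and Psmd4.

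The members differed in how far they varied. Psmb7 had the widest range among the subunits, 3.30-fold from its lowest to its highest array, followed by Psma2 (2.65-fold), Psma7 (2.49-fold) and Psmc5 (2.46-fold). Psmd1, the largest scaffold subunit of the base, varied least, 1.12-fold, with Psmd11 at 1.19-fold and Psmd7, an inactive relative of Psmd14 in the lid, at 1.20-fold. Psmc3ip was below the floor on 2 arrays, so its range has only a bound, at least 2.23-fold against the floor.

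The first comparison asks what 4 h of TNFa did to the subunit messages. Core particle genes read lower with TNFa and cap genes did so less, while no member passed the test. The TNFa difference is the mean of 2 pairs of arrays without a shared array, 1 in cells without virus and 1 in AdOVA cells. Limma called 0 of 54 member probe sets higher and 0 lower (background 0.0268% and 0% of all measured probe sets). At an unadjusted limma p under 0.05 were 10 of the 54, beside 1653 of all 14906, and the lowest adjusted p was 0.20. The median difference of the 35 genes was -0.25 on the log2 scale, against 0.02 for all genes, and 21 were lower in both pairs (60%, background 25.1%). At least 1.5-fold in both pairs, 0 members were higher (background 1.05%) and 0 lower (background 2.22%).

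The alpha ring, which forms the gate of the core, was lower in 7 of 7 genes in both pairs, counting Psma2, which was level without virus, with a median of -0.57. Psma7 signal was 1240 and 987 without virus, 1232 and 497 after AdOVA, and 1108 and 747 after AdIkBa-SR. Each TNFa array was below its own control, by 0.33, 1.31 and 0.57 on the log2 scale, and the fitted difference of the first 2 pairs was -0.82 ± 0.26 (limma SE, adjusted p = 0.20). Psma5 read 1156 and 723 without virus, 1058 and 726 after AdOVA, and 1303 and 988 after AdIkBa-SR. Its difference was -0.61 ± 0.24 (limma adjusted p = 0.31), and here both virus states gave similar sizes. Psma2 was level without virus (2215 on both arrays) and went from 2876 to 1085 in AdOVA cells, so its mean rests on 1 pair.

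In the beta ring 6 of 7 genes were lower in both pairs, with a median of -0.54. Psmb3, a non-catalytic beta subunit, read 1896 and 1275 without virus, 1908 and 1217 after AdOVA, and 1763 and 2087 after AdIkBa-SR. The first 2 pairs gave -0.57 and -0.65 (fitted -0.61 ± 0.24, limma adjusted p = 0.33), and the pair with AdIkBa-SR pointed the other way. Psmb5 was the beta gene that was not lower in both, at -0.56 without virus and 0.10 with AdOVA.

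Among the ATPases 5 of 6 were lower in both pairs, with a median of -0.24. Psmc5 read 295 and 208 without virus, 330 and 185 after AdOVA, and 392 and 455 after AdIkBa-SR, and its TNFa difference was -0.67 ± 0.27 (limma adjusted p = 0.34). Psmc1, another ATPase, read 411, 314, 402, 297, 398 and 377. The lid had a median of -0.03 and 0 of 8 genes lower in both pairs. Its deubiquitinase Psmd14 read 1042, 1520, 1177, 794, 1387 and 1031, so TNFa pointed up without virus and down in both kinds of transduced cells. The scaffold subunits stayed close to 0 (median -0.04). Psmd1 read 810, 863, 772, 832, 847 and 853, a span smaller than for any other member. Psmd3 and Psmd13, both in the lid, were with Psmd1 the members higher with TNFa in both pairs, by fitted differences of 0.14, 0.16 and 0.10.

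The pairs differed in size. Without virus, where both arrays belong to round 1 and the AdOVA+TNFa array is not used, 14 of 14 core genes were lower, again counting the level Psma2 (background 47.7%), with a median of -0.21, and 7 of 17 cap genes were. There 2 of 35 members were at least 1.5-fold lower (background 7.33%) and 0 higher (background 4.94%). With AdOVA, a pair that spans both rounds, 13 were lower (background 12%), of which 11 are core genes, and 1 higher (background 13.6%). In AdIkBa-SR cells, whose arrays differ in the wash, 7 of 7 alpha genes were lower (median -0.40) and 3 of 7 beta genes, and of all members 22 of 35 were lower (background 47.3%). Limma called 0 members in that pair (background 0% in either direction). At an unadjusted limma p under 0.05 was 1 of 54 member probe sets, beside 760 of all 14906. The difference between this TNFa response and the shared response gave 0 calls (lowest limma adjusted p 0.97).

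The lower core levels with TNFa did not stand alone. Without virus 39 of 43 ribosomal protein genes and 69 of 75 respiratory chain genes were lower, with medians of -0.47 and -0.52, more than the -0.21 of the core. Of the 7 granulocyte markers 5 (Mpo, S100a8, S100a9, Ltf and Ngp) were above the floor on all arrays, and their list's summed signal was 19580 and 12585 without virus, 17333 and 9529 after AdOVA, and 22953 and 24677 after AdIkBa-SR. The sum was thus lower with TNFa in the same 2 pairs and not in AdIkBa-SR cells, and its part in the member values was not tested. Most of the sum is S100a8 and S100a9 (8278 and 8197 on the untreated array), and the list did not move together. In the AdOVA pair Ltf rose from 387 to 559, and Ngp (2029 and 1942) and Mpo (162 and 147) changed little. In such bulk samples fewer cells of a type and less RNA per cell cannot be told apart.

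The second comparison asks what the control virus did. Psmb7 and 1 probe set of Psmd6 fell with AdOVA, and the list as a whole stayed near 0. Limma called 0 of 54 member probe sets higher (background 4.03%) and 2 lower (3.70% of the members, background 3.86%), so the members were called about as often as any probe set. The median was -0.06, against 0.07 for all genes. It was 0.09 without TNFa and -0.26 with it, so the direction differed between the pairs. Lower in both pairs were 11 of 35 (31.4%, background 26.8%) and higher 4 (11.4%, background 36.7%). At least 1.5-fold in both pairs 0 were higher (background 6.77%) and 0 lower (background 5.45%). In the pair with TNFa alone 2 were higher by that much (background 19.2%) and 10 lower (background 13.5%), and in the pair without it 1 was higher (background 14.9%) and 1 lower (background 12.8%).

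Psmb7, the trypsin-like subunit, had a signal of 2216 and 1948 without virus, 1491 and 760 after AdOVA, and 2485 and 2511 after AdIkBa-SR. Both AdOVA arrays were below the other 4. Psmb7 fell with AdOVA by 0.97 ± 0.26 on the log2 scale (limma, adjusted p = 0.030), from pairs of -0.57 and -1.36. The first lies within round 1 and the second spans both rounds, and with the round as a block the difference was -0.52 (limma adjusted p = 0.43). Without the AdOVA+TNFa array, in an additive fit, its difference was also -0.52. These are the same estimate and not separate checks, because AdOVA is the only virus state with arrays in both rounds. The call was also lost in the additive fit of all arrays (adjusted p = 0.092) and after quantile normalization (adjusted p = 0.11).

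Psmd6, a lid subunit, was read by 2 probe sets. The dimmer gave 377 and 390 without virus, 187 and 155 after AdOVA, and 444 and 286 after AdIkBa-SR, again with both AdOVA arrays lowest. It fell by 1.17 ± 0.27 (limma, adjusted p = 0.013), and without the AdOVA+TNFa array the difference was -1.18 with adjusted p = 0.37, so its size did not rest on that array. Its pair within round 1 gave -1.01. With the round as a block the difference was -1.18 (limma adjusted p = 0.38), the same estimate as without the AdOVA+TNFa array and no separate check. The brighter probe set had 509, 558, 419, 298, 577 and 475 on the same arrays and a difference of -0.59 ± 0.26 (limma adjusted p = 0.17), with both AdOVA arrays lowest here too. After quantile normalization the call of the dimmer was lost (adjusted p = 0.075), as in the additive fit (adjusted p = 0.053).

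The other catalytic subunits did not pass the test. Psmb5 read 1402 and 953 without virus, 821 and 882 after AdOVA, and 1381 and 1577 after AdIkBa-SR, with an AdOVA difference of -0.44 ± 0.25 (limma adjusted p = 0.30). Psmb6 read 1585, 1441, 2135, 1090, 1844 and 1602 in the same order. Its AdOVA pairs were 0.43 and -0.40, of opposite sign, so the 3 catalytic subunits did not share a pattern. Psma1 of the alpha ring read 1639, 1538, 1299, 825, 1897 and 1205, lower with AdOVA in both pairs at -0.62 ± 0.25 (limma adjusted p = 0.14).

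**Figure D3:**
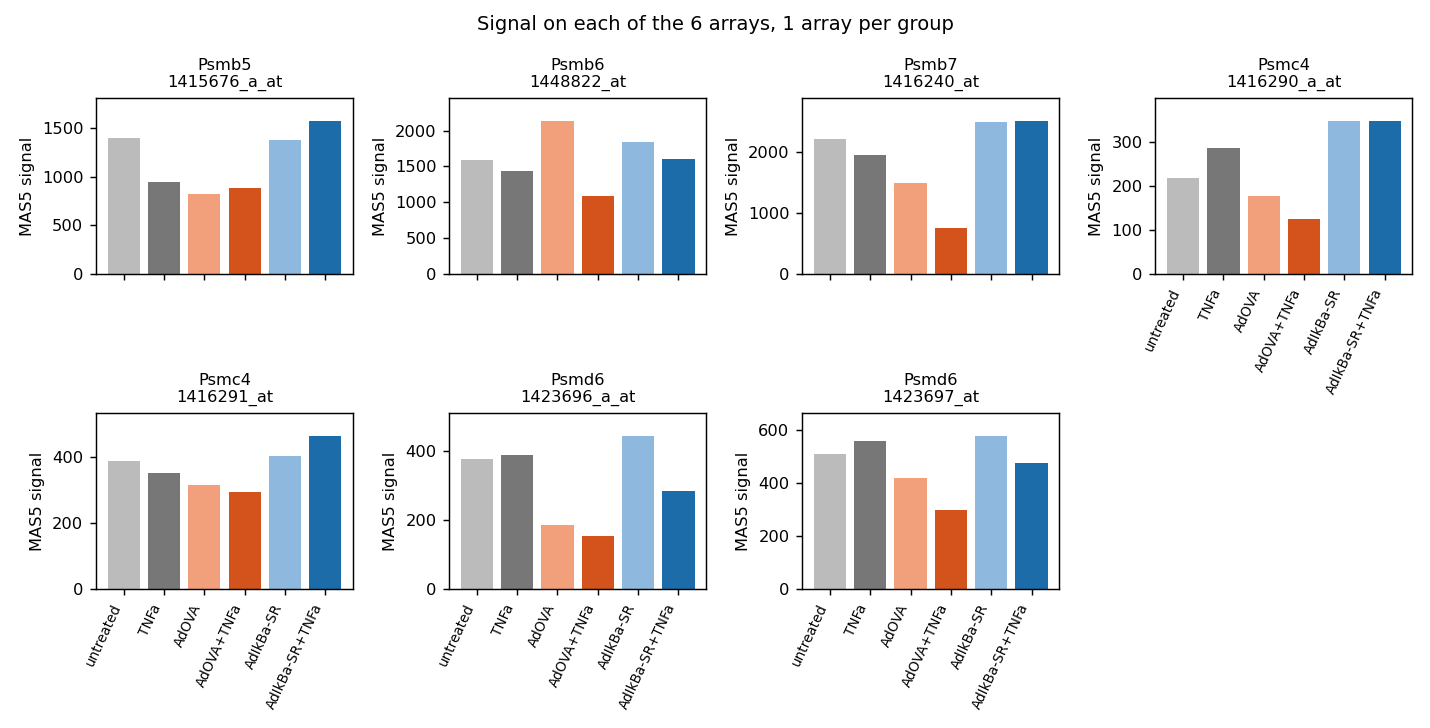
Deposited signal (bars from 0, linear axis) on each of the 6 arrays for the catalytic subunits and for both probe sets of Psmc4 and Psmd6, with no error bar because each group has 1 array. Both AdOVA bars (1491 and 760) are the lowest for Psmb7, as they are in the Psmb5, Psmc4 and Psmd6 panels, and Psmb6 differs, with its highest bar on AdOVA (2135).

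The ATPase Psmc3 had the steadiest lower values with AdOVA. It read 536 and 475 without virus, 357 and 316 after AdOVA, and 513 and 468 after AdIkBa-SR, with pairs of -0.58 and -0.59 and limma adjusted p = 0.16. Psmd2, the other large scaffold subunit, pointed up, at 1259, 1240, 1644, 1584, 1278 and 1277, and both AdOVA arrays were the highest 2 (0.37 ± 0.24, limma adjusted p = 0.37). The ubiquitin receptor Psmd4 read 502, 484, 644, 600, 555 and 613, at 0.33 ± 0.24 (limma adjusted p = 0.43). Psmd8 (lid) and Psmd9 (chaperone) were the other members higher with AdOVA in both pairs, by fitted differences of 0.21 and 0.53.

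The comparison of AdIkBa-SR with AdOVA asks how the super-repressor changed virus-treated cells. Psmb7 and probe sets of Psmc4 and Psmd6 rose with AdIkBa-SR, while 4 of 7 beta genes were higher and 3 of 3 chaperones lower in both pairs. This comparison shares its AdOVA arrays with the previous one, so a member low on those arrays is high here by construction. Limma called 3 of 54 member probe sets higher (5.56%, background 3.47%) and 0 lower (background 3.39%). At an unadjusted limma p under 0.05 were 12 of the 54, beside 3399 of all 14906, so that count shows no excess. The median of the 35 genes was 0.22, against -0.10 for all genes, and 19 were higher in both pairs (54.3%, background 25.7%) and 5 lower (14.3%, background 40.4%). At least 1.5-fold in both pairs, 2 were higher, Psmb5 and Psmb7 (5.71%, background 4.76%), and 1 was lower, Psmd9 (2.86%, background 6.73%), so neither share was far above the background. At 2-fold, 0 were higher (background 1.1%) and 0 lower (background 1.61%). With all arrays set to equal medians the split was 5 higher and 0 lower.

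Psmb7 rose by 1.23 ± 0.26 on the log2 scale (limma adjusted p = 0.0081), from pairs of 0.74, which spans both rounds, and 1.72, within round 2. With the round as a block it was 1.67 (adjusted p = 0.33). In this comparison the block estimate uses AdOVA+TNFa as its only AdOVA array, for Psmc4 and Psmd6 below as well. It is thus no check over both AdOVA arrays. Without the AdOVA+TNFa array the difference was 0.79 (adjusted p = 0.37), and in the additive fit of all arrays it was 1.23 (adjusted p = 0.057). Both AdIkBa-SR arrays (2485 and 2511) were slightly above the arrays without virus (2216 and 1948), with a difference from no virus of 0.27 ± 0.26 (limma adjusted p = 0.998). Psmb5 was higher by 0.79 ± 0.25 (limma adjusted p = 0.062), with pairs of 0.75 and 0.84 that agree in size, and both AdOVA arrays had its lowest signals.

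Psmc4, an ATPase of the base, had a dimmer probe set that read 218 and 285 without virus, 177 and 124 after AdOVA, and 346 and 347 after AdIkBa-SR. It rose by 1.23 ± 0.31 (limma adjusted p = 0.021). The difference was 0.87 without the AdOVA+TNFa array (adjusted p = 0.41), 1.26 without the AdIkBa-SR array (adjusted p = 0.097) and 1.59 with the round as a block (adjusted p = 0.33). Its brighter probe set read 387, 351, 315, 293, 402 and 464, at 0.51 ± 0.26 (limma adjusted p = 0.25), lowest on both AdOVA arrays as well. The dimmer Psmd6 probe set rose by 1.06 ± 0.27 (limma adjusted p = 0.025), and the difference was 0.80 without the AdIkBa-SR array (adjusted p = 0.26) and 1.05 with the round as a block (adjusted p = 0.39). The brighter gave 0.57 ± 0.26 (limma adjusted p = 0.19). Of these calls 0 remained in the additive fit of all arrays.

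Among the roles, 0 of 14 core genes were lower in the pair with TNFa (background 58.2%) and 8 were at least 1.5-fold higher, of 11 members that were (background 13%), with 1 lower (background 17.7%), while without TNFa 7 of 14 were lower (background 54.6%). In that pair 2 members were at least 1.5-fold higher (background 11.3%) and 2 lower (background 16.1%). The median of the core was 0.04 without TNFa and 0.60 with it. The pair with TNFa rests on the AdOVA+TNFa array, though both of its arrays belong to round 2. Ribosomal protein and respiratory chain genes had medians of 0.13 and 0.25 without TNFa and of 1.09 and 1.05 with it. In the pair with TNFa the summed granulocyte markers were 9529 with AdOVA and 24677 with AdIkBa-SR, and the summed mast cell and basophil markers 820 and 1448. The part of these sums in the member values was not tested. Cpa3 (286 and 558) and Mcpt8 (312 and 670) carried most of the second sum. Ms4a2 (78 and 59), Kit (100 and 77) and the granulocyte marker Mpo (147 and 114) went the other way. The ATPases were higher in both pairs in 5 of 6 genes (median 0.37), among them Psmc3 (0.54 ± 0.25, limma adjusted p = 0.20). In the alpha ring Psma1 was higher by 0.55 ± 0.25 (limma adjusted p = 0.20).

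All 3 assembly chaperones were lower with AdIkBa-SR in both pairs, as were 40.4% of all genes (median -0.49, all genes -0.10), and none passed the test. Psmd9 read 177 and 110 without virus, 191 and 212 after AdOVA, and 111 and 129 after AdIkBa-SR, a difference of -0.76 ± 0.34 (limma adjusted p = 0.19), and its dimmer probe set gave -0.11. Psmd5 read 469, 624, 605, 546, 451 and 370, at -0.49 ± 0.25 (limma adjusted p = 0.26), with both AdIkBa-SR arrays lowest. Psmd10, also known as gankyrin, read 279, 269, 424, 227, 268 and 190, at -0.46 ± 0.29 (limma adjusted p = 0.38). Psmd2 was lower by -0.34 ± 0.24, back at the level without virus.

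**Figure D4:**
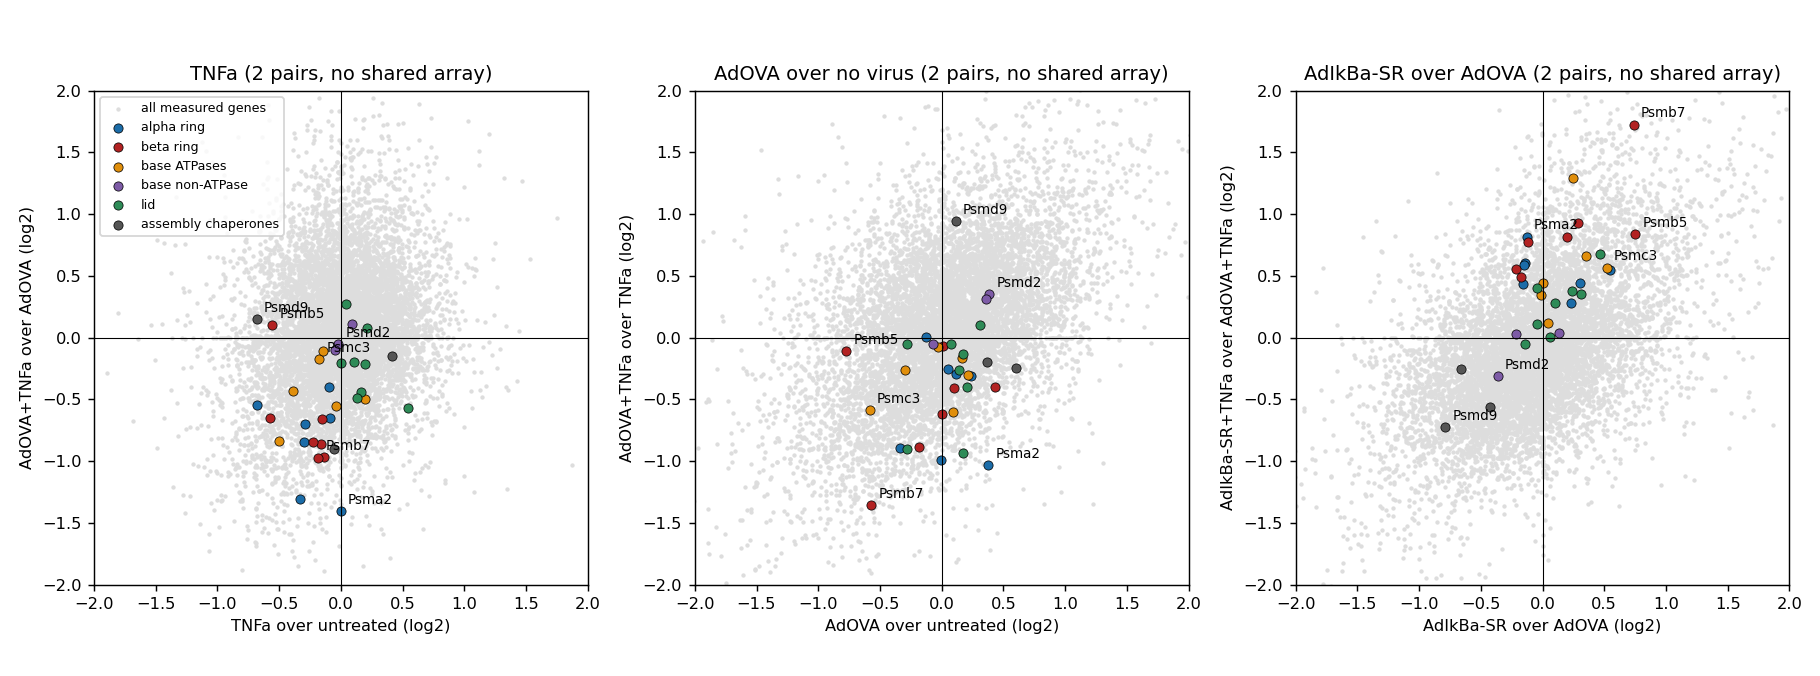
Log2 difference of each proteasome gene (coloured by role) in the first pair of arrays (horizontal axis) and in the second (vertical axis), for TNFa, AdOVA over no virus and AdIkBa-SR over AdOVA, over grey points for all measured genes within the axis range. For TNFa 13 of 14 core genes lie below and to the left of both zero lines, and for AdIkBa-SR over AdOVA 0 of 14 core genes lie below the horizontal line.

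Against cells without virus, no member passed the test with AdIkBa-SR. Limma called 0 of 54 member probe sets higher (background 0.0335%) and 0 lower (background 0%). At an unadjusted limma p under 0.05 were 4 of the 54, beside 815 of all 14906, and the lowest adjusted p was 0.70. Every pair here spans both rounds, so round and virus cannot be told apart. The median was 0.07 (all genes -0.02), with 16 of 35 higher in both pairs (45.7%, background 20%) and 4 lower (11.4%, background 25.2%). At least 1.5-fold in both pairs, 0 were higher (background 1.03%) and 0 lower (background 0.672%). With TNFa alone 4 were that much higher (background 11.9%) and 1 lower (background 11.8%), and without it 0 (background 3.44%) and 1 (background 4.71%). Psmc5 had the largest difference, 0.77 ± 0.27 (limma adjusted p = 0.70), with its highest signals on both AdIkBa-SR arrays. Psmd8 read 1264 and 1268 without virus, 1569 and 1362 after AdOVA, and 1525 and 1804 after AdIkBa-SR, at 0.39 ± 0.24. Psmb4 and Psmd3 were higher by 0.20 each, and Psma7 was lower in both pairs at -0.28 ± 0.26, with Psmd10 (-0.28), Psmd5 (-0.40) and Psmc3 (-0.04).

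Of the 35 genes 21 had 1 measured probe set and 14 had several, and some of these disagreed. For Psmb1 the bright probe set gave 0.61 with AdIkBa-SR over AdOVA and a dim one -0.40. The 5 probe sets of Psmd11 ran from -0.44 to 0.43 in that comparison, and the brightest (signals 1502 to 1787) was near 0 at -0.10. In the AdOVA comparison the dimmest Psmd4 probe set gave 0.95 and the others 0.17 and 0.33, and for Psmc2 the brightest gave -0.04 and the other -0.62. Dim probe sets of Psma6 and Psmc6 read higher with TNFa (0.41 and 0.57) where the bright ones read lower (-0.49 and -0.15), and the probe sets of Psma5 had opposite signs with AdIkBa-SR over AdOVA (0.37 and -0.24). Just inside the threshold, 1 probe set of Psmd11 exceeded the floor on 2 arrays (58.7 and 61.4). Just outside it, 1 of Psma1 did so on 1 array (66.8) and 1 of Psmb1 likewise (54.6).

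Genes that work with the proteasome, taken from lists of partners, followed several patterns. Of the immunoproteasome subunits and PA28, the interferon-induced forms, 4 of 5 were measured, and 1, Psmb9, rose with AdOVA by 0.93 (limma adjusted p = 0.020), at 804 and 580 without virus, 1550 and 1097 after AdOVA, and 819 and 986 after AdIkBa-SR. Psmb9 replaces Psmb6 in the immunoproteasome. The list's median with AdOVA was 0.49, with pair medians of 0.63 without TNFa and 0.59 with it. The constitutive beta ring had -0.31, with pair medians of 0.002 without TNFa and -0.40 with it. Its lower value thus rests on the pair that uses the AdOVA+TNFa array. The activators Psme3 and Psme4 and the inhibitor Psmf1 were all measured and 0 were called in any comparison. With AdOVA 4.03% of all measured probe sets were called higher and 3.86% lower, and fewer in the other comparisons. A count of 0 in a list this short therefore carries no result.

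Core assembly factors were measured in 5 of 5 genes and 0 were called in any comparison, again a short list. Their TNFa median was -0.83. Pomp, which matures the beta ring, read 2222 and 1425 without virus, 2431 and 1193 after AdOVA, and 2169 and 1827 after AdIkBa-SR, below its control in every TNFa pair. Of 13 cap partner symbols 9 were measured, and 1 was called lower with AdOVA (background 3.86%). Uchl5, a deubiquitinase of the cap, fell with AdOVA by 1.00 (limma adjusted p = 0.041), at 316, 349, 196, 142, 354 and 252 on the same arrays, with both AdOVA arrays lowest as for Psmd6 and Psmb7. Of the regulators 4 of 5 were measured and 0 called in any comparison. Nfe2l1 read 459, 603, 442, 633, 397 and 541, higher on each TNFa array than on its control. None of the 5 ubiquitin gene symbols was measured here.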

How the data were processed

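Total RNA (8 ug per sample) was hybridised to MOE430A arrays, 1 per group. The authors deposited 1 linear intensity for each probe set, from MAS5 according to the submitters' processing notes (version: not given in the sources used here). Wash and scan settings came from the deposited array headers. Signals were set to the floor of 53.5 where below it and log2 values taken, so differences of dim genes are compressed. A gene was read from its brightest measured probe set. Limma 3.58.1 in R 4.3.3 (lmFit, eBayes with trend) was fitted to all 14906 measured probe sets with 5 coefficients (each of 3 virus states, a TNFa response common to untransduced and AdOVA cells, and 1 in AdIkBa-SR cells), which leaves 1 residual degree of freedom. Its p-values rest on how far the first 2 TNFa responses differ, pooled over probe sets, and not on replicate cultures. A call is an adjusted p-value (Benjamini-Hochberg) under 0.05. The fit was run on simulated data with independent noise of equal size and no shift of a round or array. That run checks the code and does not bear on such shifts in these arrays. Named were the catalytic subunits, called members, members whose probe sets disagree and, per comparison and direction, up to 4 genes with the largest smaller pair difference. Other genes given with values were chosen after their values were seen. Members and lists were chosen with earlier results of these data known. The alternatives were other scalings, floors, fits and folds, left-out arrays and single pairs. Array number limits the precision.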

Additional observations from a re-analysis of the deposited data

Results flagged for a closer look

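The 5' control probe set for 18S ribosomal RNA, which is outside the comparisons of the report, read 2601.1 on the AdOVA+TNFa array, above the 120 of the untreated array and the 537 of the next highest. The 3' control probe set read 1061 there and 229 to 414 on the others. The same array had the lowest signal of 22 of 35 members, and the part of this in the member values was not tested.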

How the results depend on the processing

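Of 114 alternative values of the main counts and medians, 84 stayed within the limits set for them (for a median, 1 SD of its pair medians) and 30 moved. The 84 do not measure stability. The limit of a median widens with the gap between its pairs, so single-pair medians mostly stay within it by construction. Where the pairs are close, small shifts count as moved. Many of the counts that stayed were 0 throughout. The member median for AdOVA, which no test called, changed sign between its pairs, from -0.06 over both to 0.09 in the pair without TNFa. The 2 member probe sets called with AdOVA became 0 with quantile normalization, no filter on low values, the additive fit and the round block. They became 1 with the floor at the 30th percentile or eBayes without the trend. For this comparison the additive fit without the AdOVA+TNFa array gave the same estimates as the round block, so it was no separate setting. The 3 called with AdIkBa-SR over AdOVA became 0 with quantile normalization, the floor at the 30th percentile, no filter and the additive fit. They also became 0 with the round block and without the AdOVA+TNFa array, and 1 without the AdIkBa-SR array. In this comparison the round block uses AdOVA+TNFa as its only AdOVA array. Members at least 1.5-fold apart in both pairs went, for TNFa, from 0 to 1 with equal medians, 2 in the pair without virus alone and 14 in the pair with AdOVA alone. For AdOVA they went from 0 to 2 with equal medians, 1 with the mean over probe sets, 2 in the pair without TNFa and 12 in the pair with TNFa. For AdIkBa-SR over AdOVA they went from 3 to 5 with equal medians, 0 at 2-fold and 12 in the pair with TNFa, and over no virus from 0 to 1 without TNFa and 5 with TNFa. The member median for AdIkBa-SR over no virus was 0.07 and became 0.11 with equal medians, 0.11 with the mean over probe sets, 0.11 without TNFa and 0.14 with TNFa. The cause was not tested. Equal medians moved the median of all probe sets from 0.06 to -0.08 for AdOVA and from -0.09 to 0.07 for AdIkBa-SR over AdOVA, and the member medians from -0.06 to -0.22 and from 0.22 to 0.42. Single-pair counts were added after the data were seen. No paired analysis was possible because each group has 1 array, so no replicate numbers link the groups, and the array pairs of the report are matched by condition alone.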
